A study of Homo sapiens with 3 samples.

Results

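The genes described here are 43 listed genes of the response to low oxygen (hypoxia) and of glycolysis, measured on 3 expression arrays. They were taken as the probe sets whose only gene symbol in the array's annotation was a listed gene, with the probe set of highest mean signal standing for each gene. This gave 40 of the 43 genes, among 19775 genes on the arrays, and the other 3 listed genes were not analysed here. The 40 genes comprise 5 of oxygen sensing, 17 targets of the hypoxia-inducible factors (HIF), 2 glucose transporters and 16 glycolytic enzymes. The arrays hold RNA of cells labelled HepG2, an established human liver tumour line, grown in DMEM with fetal bovine serum. All 3 cultures were stably transfected: 1 with an Hsp27 ORF vector, 1 with an Hsp27 shRNA vector and 1 with a control vector, and they are called ORF, shRNA and control below. The titles name the ORF vector IRES2-HSP27, the shRNA one HSP27-SiRNA and the control EGFP-NC. The labels state no low-oxygen treatment and do not say whether a culture was a clone or a pool. Hsp27, encoded by HSPB1, is a small heat shock protein that holds unfolded proteins, and the series' title asks about its part in the spread of liver cancer.

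HIF is a transcription factor of an oxygen-regulated alpha subunit, HIF1A or EPAS1 (also called HIF-2 alpha), and the stable partner ARNT. In the presence of oxygen, prolyl hydroxylases such as EGLN1 and EGLN3 mark the alpha subunit for destruction, so that HIF activity is set largely at the protein level and is not read from the alpha subunit's RNA. In low oxygen HIF binds hypoxia response elements beside genes of angiogenesis, pH control, mitophagy, collagen modification and nearly every step of glycolysis, the pathway that turns glucose into pyruvate and lactate and that liver tumours use heavily.

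There was 1 array per group, so no difference below has a replicate check, no p-value is given, and the values describe these arrays. Values are log2 signals. Before taking log2 ratios, any signal under the pooled median over the arrays (5.93, or 60.8 linear) was raised to it, and this median is called the floor. Many of the ratios are set beside a noise SD from genes with several probe sets. Over the 40 genes it lies between 0.081 and 0.394 in ORF against control and between 0.117 and 0.406 in shRNA against control. It is smallest for bright probe sets. This SD leaves out all differences between cultures. HSPB1 had a log2 signal of 13.11 for ORF, 13.03 for shRNA and 13.25 for control. It was thus lower on both vector arrays than on the control array. The log2 ratio was −0.14 for ORF (noise SD 0.088), which goes against the array's label, and −0.22 for shRNA (1.16-fold, noise SD 0.125). For HSPB1, ORF against shRNA gave 0.08, within the noise SD of 0.095. Whether its probe set lies within the vector's insert was not checked. Names of groups below therefore mean the array with that label. In RNA of whole cultures, a different share of cells that express a gene and a different level per cell cannot be told apart. Of 10 hepatocyte markers measured, such as albumin and alpha-fetoprotein, 2 were above the floor on any array on the probe set used, with a highest log2 signal of 6.51, and APOA1 exceeded it on 1 other probe set. On the linear scale they summed to 321.0 in ORF, 320.0 in shRNA and 377.1 in control, so on the probe sets used the defining markers of the labelled line were near or below the floor on every array.

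The promoters of 5 of the genes whose values are given below are shown because they carry the letters at the core of the hypoxia response element, ACGTG or GCGTG on either strand. Each window runs from 250 bases before to 50 bases after the start of the gene (RefSeq, GRCh38.p14), is written 5′ to 3′ on the gene's strand, and has the matched letters in capitals, as CACGT or CACGC where the match is on the opposite strand. EPAS1 lies at chr2:46297157-46297456 on the plus strand, CA12 at chr15:63381797-63382096 on the minus strand, ENO2 at chr12:6914330-6914629 on the plus strand, PFKFB4 at chr3:48556754-48557053 on the minus strand and ALDOC at chr17:28576846-28577145 on the minus strand.
EPAS1: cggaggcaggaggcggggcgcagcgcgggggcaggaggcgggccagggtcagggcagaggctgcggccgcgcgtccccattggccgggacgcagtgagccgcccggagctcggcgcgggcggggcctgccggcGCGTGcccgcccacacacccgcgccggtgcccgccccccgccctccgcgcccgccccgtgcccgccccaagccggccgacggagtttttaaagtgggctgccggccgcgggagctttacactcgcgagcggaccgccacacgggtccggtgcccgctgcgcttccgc
CA12: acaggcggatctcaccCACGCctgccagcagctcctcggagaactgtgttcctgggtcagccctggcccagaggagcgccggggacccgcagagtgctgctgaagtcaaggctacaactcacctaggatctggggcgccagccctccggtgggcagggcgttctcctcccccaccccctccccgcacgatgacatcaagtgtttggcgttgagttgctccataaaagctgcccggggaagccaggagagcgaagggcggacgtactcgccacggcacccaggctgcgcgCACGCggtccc
ENO2: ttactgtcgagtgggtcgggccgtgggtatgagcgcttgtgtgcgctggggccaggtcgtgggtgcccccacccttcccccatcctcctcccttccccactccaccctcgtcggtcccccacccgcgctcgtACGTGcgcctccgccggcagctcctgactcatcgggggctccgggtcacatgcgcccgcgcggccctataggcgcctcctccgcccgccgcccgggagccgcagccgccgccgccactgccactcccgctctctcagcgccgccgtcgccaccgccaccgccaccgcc
PFKFB4: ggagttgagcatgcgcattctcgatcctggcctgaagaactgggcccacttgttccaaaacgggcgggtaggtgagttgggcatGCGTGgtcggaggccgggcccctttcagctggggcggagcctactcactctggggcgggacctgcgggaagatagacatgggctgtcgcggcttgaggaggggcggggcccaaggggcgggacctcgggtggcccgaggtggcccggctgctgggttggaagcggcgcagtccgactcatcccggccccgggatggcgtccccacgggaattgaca
ALDOC: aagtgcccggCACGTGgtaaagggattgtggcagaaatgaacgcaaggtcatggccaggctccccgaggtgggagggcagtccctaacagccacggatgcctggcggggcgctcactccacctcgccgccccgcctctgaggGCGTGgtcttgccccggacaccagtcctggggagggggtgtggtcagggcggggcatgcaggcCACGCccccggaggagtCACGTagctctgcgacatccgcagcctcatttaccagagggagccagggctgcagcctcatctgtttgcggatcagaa

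The windows of EPAS1 and PFKFB4 each hold 1 GCGTG, that of CA12 holds 2, and that of ENO2 holds 1 ACGTG. The ALDOC window holds 5 matches: 3 of ACGTG, since its palindrome CACGTG counts once on each strand, and 2 of GCGTG. Over all 59 windows of the 35 measured genes with an entry, 22 (37.29%) held ACGTG and 26 (44.07%) held GCGTG, against 21.41% and 36.54% of all 35116 windows. Either motif was found in 14 of 16 windows of HIF targets (87.50%), in 22 of 36 windows of glycolytic enzymes (61.11%) and in 48.45% of all windows. Windows of 1 gene overlap where its starts are close, and HIF targets were listed because they are known to be bound by HIF. A match is a description of these letters and does not show a bound site. The windows of P4HA2 and EGLN3, genes higher on both vector arrays, hold no match, and neither do those of ARNT and PGAM1.

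Of the 40 genes all exceeded the floor on 1 array or more, 38 of them on all 3 arrays, and 36 reached the 75th percentile of the arrays' signals (8.63 as log2) on all 3. Most therefore read as clearly expressed in all 3 cultures. The exceptions were EGLN3, ANGPTL4, SLC2A3 and ENO2, which were under that percentile on at least 1 array. Few genes differed by 1.5-fold (0.58 on the log2 scale). In ORF against control 2 of 40 were higher past this fold, CA12 and EGLN3, and 0 were lower, against 3.11% of all genes tested higher and 2.89% lower. In shRNA against control 1 was higher, ANGPTL4, and 0 were lower, against 3.66% and 3.36% of all genes. In ORF against shRNA 1 was higher, ENO2, and 0 were lower, against 2.69% and 2.74%. These shares are near the background of the arrays. Just under the threshold lay ENO2 in ORF against control (0.58) and PFKFB4 in shRNA against control (−0.56).

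**Figure D1:**
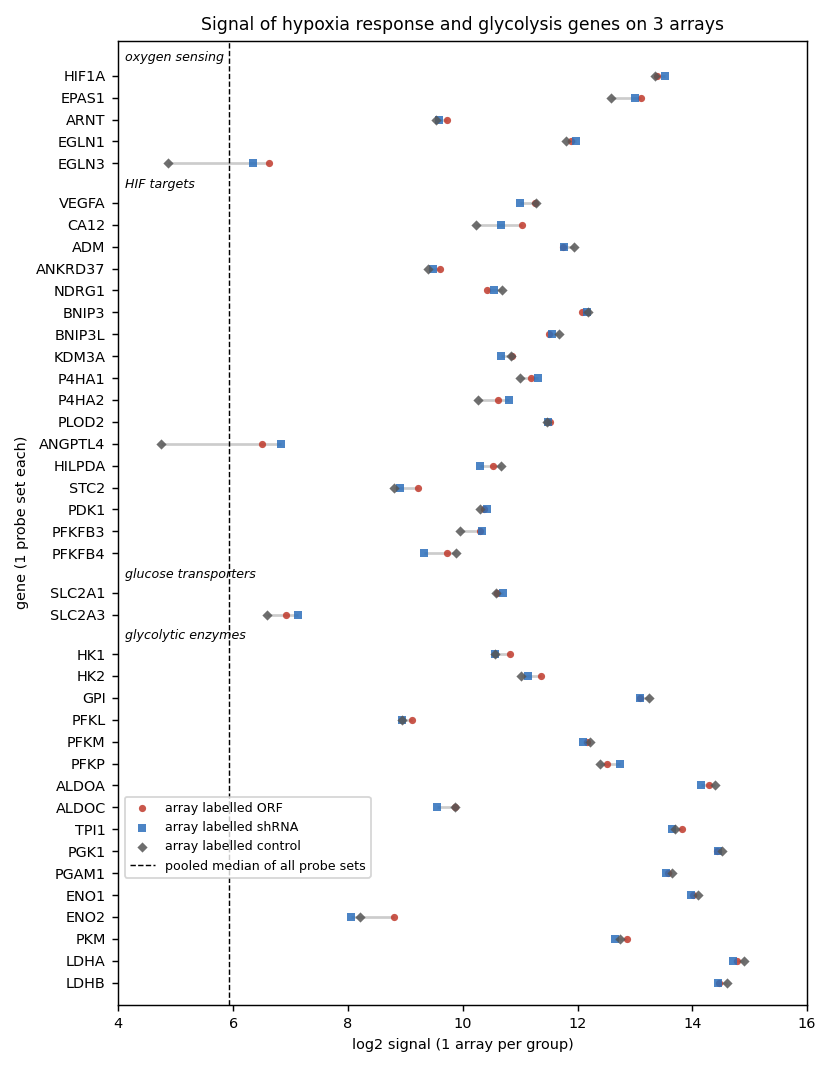
Log2 signal (x axis) of the 40 measured genes (y axis, 1 probe set each) on the ORF array (red circles), the shRNA array (blue squares) and the control array (grey diamonds), with the floor at 5.93 as a dashed line. The points of most genes lie close together, and the widest gaps belong to EGLN3 (6.62, 6.35 and 4.87) and ANGPTL4 (6.50, 6.83 and 4.75), whose control signals lie below the floor.

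At a lower threshold of 0.32 on the log2 scale the split was less even. In ORF against control 10 of 40 genes (25%) were higher and 0 were lower, against 9.89% and 9.50% of all genes tested. The 10 genes were EPAS1, EGLN3, CA12, P4HA2, ANGPTL4, STC2, PFKFB3, SLC2A3, HK2 and ENO2. For EGLN3 and ANGPTL4 the floor sets the ratio, and SLC2A3 (0.33) lay within its noise SD of 0.394. In shRNA against control 8 (20%) were higher and 2 (5%) lower, against 11.6% of all genes in each direction. The 8 higher genes were EPAS1, EGLN3, CA12, P4HA2, ANGPTL4, PFKFB3, SLC2A3 and PFKP, and the 2 lower ones were HILPDA and PFKFB4. Both comparisons use the same control array, so a high or low reading there enters both. The genes were also listed with earlier results of these data known, so these shares do not test for an excess. In ORF against shRNA, which does not use it, 3 genes were higher (CA12, PFKFB4 and ENO2) and 1 was lower (ANGPTL4), against 10.0% and 9.75% of all genes.

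Among the oxygen-sensing genes above the floor on every array, EPAS1 differed most from control. Its log2 signal was 13.10 for ORF and 13.01 for shRNA, against 12.59 for control, or 8778, 8245 and 6145 on the linear scale. Both vector arrays were above the control array and lay close to each other. The log2 ratio was 0.51 for ORF (1.43-fold, noise SD 0.092) and 0.42 for shRNA (1.34-fold, noise SD 0.129), and ORF against shRNA gave 0.09. The other EPAS1 probe sets were near or below the floor, between 2.47 and 5.98, so this difference rests on 1 probe set.

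HIF1A, the alpha subunit of the acute response to low oxygen, had log2 signals of 13.39 for ORF, 13.52 for shRNA and 13.35 for control on its only probe set. The ORF and control arrays were nearly equal and the shRNA array was slightly higher, with ratios of 0.04 for ORF and 0.16 for shRNA against control (noise SD 0.084 and 0.120). ARNT, the shared partner, had log2 signals of 9.72, 9.59 and 9.54 for ORF, shRNA and control. Its ratios of 0.18 and 0.05 were close to or below their noise SD of 0.170 and 0.228. EGLN1, the main oxygen sensor among the prolyl hydroxylases, differed little, by 0.08 and 0.16. EGLN3, a prolyl hydroxylase that is itself induced by HIF, had log2 signals of 6.62 for ORF and 6.35 for shRNA, against 4.87 for control. Both vector arrays were above the floor and the control array was below it. The floor therefore sets the ratios of 0.69 for ORF (noise SD 0.355) and 0.42 for shRNA (noise SD 0.392), which were 1.75 and 1.48 with no floor. Its other probe set was below the floor on all 3 arrays. All 5 oxygen-sensing genes had ratios above 0 in both comparisons against control, which share the control array. Over all genes tested 49.48% and 48.02% were above 0. The medians were 0.18 for ORF and 0.16 for shRNA, beside −0.00 and −0.01 over all genes tested. With the median over probe sets they were 0.04 and 0.08, with 4 of 5 above 0 in each. Of 2 other EGLN1 probe sets above the floor, 1 gave −0.05 and −0.06. Of 4 such ARNT probe sets, 1 gave −0.18 for ORF and another −0.05 for shRNA.

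The 17 HIF targets did not differ in a common direction. Their median log2 ratio was 0.06 in ORF against control (10 above 0, range −0.27 to 0.79) and 0.02 in shRNA against control (9 above 0, range −0.56 to 0.91). In ORF against shRNA it was −0.02, with 8 above 0. Over all genes tested 49.48%, 48.02% and 52.16% were above 0 in these comparisons, so the counts are near the background. Targets of the same factor thus lay on both sides of 0 on these arrays.

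CA12, a membrane carbonic anhydrase that helps tumour cells export acid, had the highest floored ratio of the 40 genes in ORF against control. With no floor, EGLN3 (1.75) and ANGPTL4 (1.75) exceeded it. The log2 signals of CA12 were 11.03 for ORF and 10.67 for shRNA, against 10.24 for control. The 3 arrays stood in steps, with ORF highest and control lowest. Against control the log2 ratio was 0.79 in ORF (1.73-fold, noise SD 0.125) and 0.43 in shRNA (noise SD 0.180). Between the vectors, ORF exceeded shRNA by 0.35 (noise SD 0.148). The 5 other CA12 probe sets with signal over the floor shared that sign in ORF against control and in ORF against shRNA, with the 4 brighter ones between 0.67 and 0.93 in ORF against control. In shRNA against control the 4 with a ratio were also above 0, between 0.14 and 0.44.

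ANGPTL4, a secreted inhibitor of lipoprotein lipase, had log2 signals of 6.50 for ORF and 6.83 for shRNA, against 4.75 for control. Like EGLN3, it was above the floor on both vector arrays and below it on the control array. The floored ratios were 0.57 for ORF (noise SD 0.368) and 0.91 for shRNA (noise SD 0.406), and with no floor they were 1.75 and 2.09. Its second probe set was below the floor on all 3 arrays. P4HA2, a subunit of the prolyl 4-hydroxylase that modifies collagen, had log2 signals of 10.62 for ORF and 10.81 for shRNA, against 10.27 for control. Both vector arrays were higher than control, by 0.35 for ORF (noise SD 0.126) and by 0.54 for shRNA (noise SD 0.183). A dimmer P4HA2 probe set gave 0.73 for shRNA but −0.11 for ORF, so its probe sets differ in sign for ORF. The paralogous subunit P4HA1 had ratios of 0.18 and 0.32, and PLOD2, a lysyl hydroxylase of the same pathway, 0.06 and 0.02. PFKFB3, which makes the activator of phosphofructokinase, was higher by 0.36 in ORF and by 0.38 in shRNA, each against control, on its only probe set. STC2, a secreted glycoprotein, differed by 0.42 in ORF and 0.11 in shRNA, but its second probe set gave −0.07 and 0.19.

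PFKFB4, the other hypoxia-induced isoform of that activator-making enzyme, was the lowest of the 40 genes in shRNA against control. Its log2 signal was 9.73 for ORF and 9.32 for shRNA, against 9.88 for control. The ORF and control arrays lay close and the shRNA array was lower. The log2 ratio was −0.14 for ORF (noise SD 0.167) and −0.56 for shRNA (noise SD 0.227), and ORF against shRNA gave 0.42. A second probe set near the floor gave 0.36 for shRNA, the opposite sign. HILPDA, a lipid droplet protein, had log2 signals of 10.53 for ORF and 10.30 for shRNA, against 10.67 for control. The shRNA array was the lowest, at −0.37 against control (noise SD 0.185), and the second probe set gave −0.61. VEGFA, the main angiogenic growth factor, had log2 signals of 11.26 for ORF and 11.00 for shRNA, against 11.28 for control. ORF and control were equal within the noise SD, and shRNA was lower, at −0.28 against control (noise SD 0.172). Its other probe sets followed it only in part. The next brightest gave 0.16 for ORF and −0.14 for shRNA against control. Between the vectors it gave 0.29, beside 0.27 on the probe set used. A dimmer one gave −0.11 for ORF and −0.09 for shRNA against control, and −0.02 between the vectors. The dimmest, below the floor on both vector arrays, gave −1.61 for each against control.

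The lowest HIF target in ORF against control was NDRG1, a stress-responsive differentiation gene, with log2 signals of 10.42 for ORF, 10.55 for shRNA and 10.68 for control. Its ratios were −0.27 for ORF (noise SD 0.126) and −0.14 for shRNA (noise SD 0.183). ADM, which encodes the vasodilator adrenomedullin, had log2 signals of 11.76, 11.77 and 11.93 on the ORF, shRNA and control arrays. BNIP3L, a mitophagy receptor, had 11.51, 11.55 and 11.67 on the same arrays. Both genes read highest on the control array, with ratios from −0.18 to −0.12, beside noise SDs of 0.107 to 0.166. The second BNIP3L probe set gave −0.39 for ORF and −0.21 for shRNA. The related receptor BNIP3 gave −0.09 and −0.01, but its other probe set, also bright, gave 0.22 for ORF and 0.235 for shRNA. The histone demethylase KDM3A gave 0.01 and −0.16, for ORF and then shRNA against control. In the same order ANKRD37 gave 0.19 and 0.08. PDK1, the kinase that keeps pyruvate out of the mitochondrion, gave 0.07 and 0.12, and a dimmer PDK1 probe set −0.08 and −0.26.

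**Figure D2:**
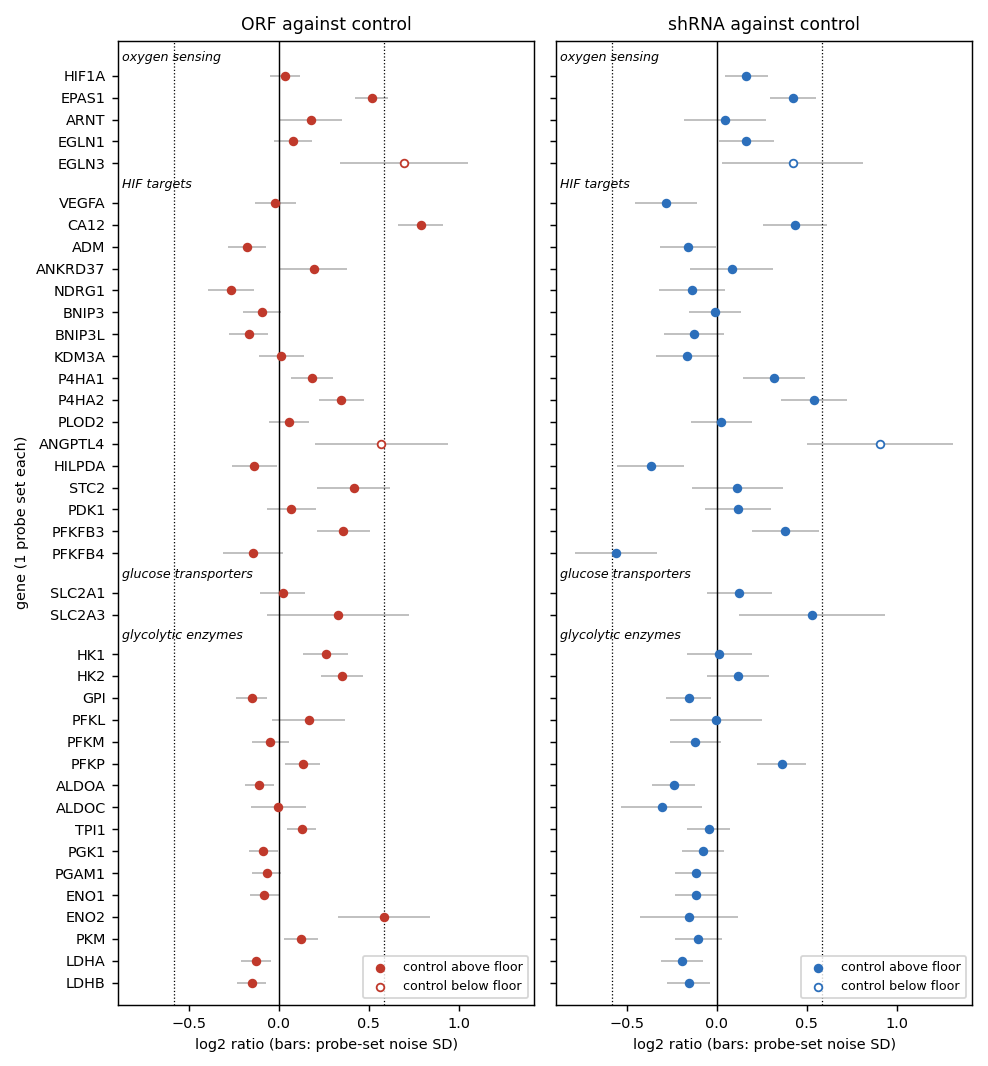
Log2 ratio (x axis) of the 40 genes (y axis) in ORF against control (left, red) and shRNA against control (right, blue); bars are the probe-set noise SD, open circles mark genes whose control signal lay below the floor, and dotted lines mark 1.5-fold. CA12 (0.79) and EGLN3 (0.69) lie past the right dotted line on the left panel and ANGPTL4 (0.91) on the right panel, and no gene lies past the left one.

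**Figure D3:**
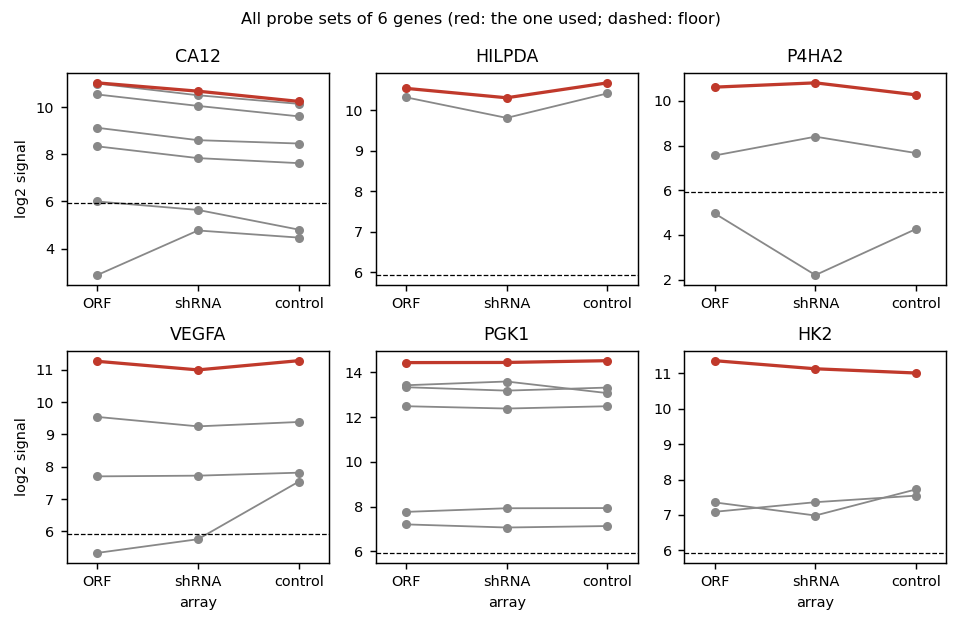
Log2 signal (y axis) on the ORF, shRNA and control arrays (x axis) for every probe set of 6 genes, with the probe set used in red, the others in grey and the floor dashed. The 4 grey CA12 lines well above the floor slope the same way as the red one, whereas the dimmer HK2 and P4HA2 lines do not all follow the probe set used.

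Of the glucose transporters, SLC2A1 (GLUT1), the common carrier of proliferating cells, had ratios of 0.02 for ORF and 0.13 for shRNA against control, both smaller than the noise SD of 0.125 and 0.180. SLC2A3 (GLUT3), a carrier of high affinity, had log2 signals of 6.92 for ORF and 7.13 for shRNA, against 6.60 for control. Both vector arrays were higher, by 0.33 (noise SD 0.394) and 0.53 (noise SD 0.406), which for ORF is within the noise SD of such dim signals. The 2 probe sets that SLC2A3 shares with SLC2A14 differed from each other. For ORF, shRNA and control the first read 6.09, 6.70 and 6.71, so neither vector array was higher there. The second read 6.52, 6.52 and 6.25, higher on both vector arrays. A dimmer SLC2A3 probe set near the floor read 6.19, 5.77 and 5.82 in the same order. The median over probe sets took the SLC2A3 ratio for shRNA against control to 0.00.

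Among the glycolytic enzymes the hexokinases HK1 and HK2, which trap glucose in the cell, were higher in ORF on the probe sets used. HK2, the inducible form of tumours, had ratios of 0.35 for ORF (noise SD 0.117) and 0.12 for shRNA (noise SD 0.172), each against control. HK1, the widely expressed form, had 0.26 and 0.01. Both bright hexokinase probe sets thus read highest on the ORF array, but the 2 dimmer HK2 probe sets gave −0.46 and −0.37 for ORF. Next in the pathway, GPI, which isomerises glucose 6-phosphate, had log2 signals of 13.10 for ORF and 13.09 for shRNA, against 13.25 for control. It was lower on both vector arrays by nearly the same amount, with ratios of −0.15 for ORF (noise SD 0.088) and −0.15 for shRNA (noise SD 0.125). The phosphofructokinase subunits, which form the committed step, did not move together. PFKP, the platelet-type subunit, was the highest enzyme in shRNA against control at 0.36 (noise SD 0.135), and gave 0.13 in ORF. PFKM gave −0.05 for ORF and −0.12 for shRNA, and PFKL 0.16 and −0.00.

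Of the aldolases, which split the sugar, ALDOC had log2 signals of 9.86 for ORF and 9.56 for shRNA, against 9.86 for control. ORF and control were equal and shRNA was lower, with a ratio of −0.31 (noise SD 0.224). ALDOA, the muscle-type form, gave −0.11 for ORF and −0.24 for shRNA. TPI1 gave 0.13 and −0.05, PGK1 −0.09 and −0.08, and PGAM1 −0.07 and −0.11, so the middle enzymes of the pathway lay within 0.13 of 0. Other centring turned some of these signs: with loess TPI1 gave 0.02 and PGK1 also 0.02 for shRNA. The PGK1 probe sets differed among themselves, since 1 bright probe set gave 0.35 for ORF and 0.52 for shRNA. The other TPI1 probe sets gave −0.02 and −0.20 for ORF, and −0.04 and 0.13 for shRNA. Of the enolases, ENO1 gave −0.08 and −0.12. ENO2, the isoform best known from neurons and also a HIF target, had log2 signals of 8.80 for ORF and 8.06 for shRNA, against 8.21 for control. The ORF array stood above the others, which lay within the noise SD of each other. Against control the log2 ratio was 0.58 in ORF (noise SD 0.254) and −0.15 in shRNA (noise SD 0.272). Between the vectors, ORF exceeded shRNA by 0.74 (1.67-fold, noise SD 0.237). ENO2 has 1 probe set, and with the floor raised to the 75th percentile both ORF ratios shrank to 0.16. At the end of the pathway, pyruvate kinase PKM gave 0.12 for ORF and −0.10 for shRNA. The lactate dehydrogenase subunits LDHA and LDHB were lower on both vector arrays, with ratios for LDHA of −0.13 in ORF and −0.19 in shRNA, and for LDHB of −0.15 and −0.16, but under quantile normalization LDHA turned to 0.02 in ORF and LDHB to 0.02 in shRNA.

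As a group the 16 glycolytic enzymes had a median log2 ratio of −0.02 in ORF against control, with 9 below 0, and of −0.12 in shRNA against control, with 13 below 0. Over all genes tested 50.52% and 51.98% were below 0 in these comparisons. The small values below 0 of the bright enzymes depended on how the arrays were centred. Loess centring subtracts a smooth curve of the ratio against signal level, fitted over probe sets above the floor. With it the medians were −0.01 for ORF and −0.06 for shRNA, with 9 and 11 below 0. With quantile normalization they were 0.03 and −0.01, with 6 and 11 below 0. GAPDH, a glycolytic enzyme outside the 43 genes that often serves as a loading control, was below 0 on all 6 of its probe sets, from −0.27 to −0.11 for ORF and from −0.41 to −0.10 for shRNA, at equal trimmed means. On its probe set of highest signal it gave −0.03 for ORF and 0.00 for shRNA with loess, and 0.01 and 0.09 with quantile normalization. The sign on that probe set thus depended on the centring. Recentred values were not read for the other GAPDH probe sets, which lay further below 0 for shRNA. The probe sets used for LDHA, LDHB, ALDOA and ENO1 also read highest on the control array, but other probe sets of ENO1 (0.06 and 0.05 for ORF) and 1 of ALDOA (0.10 for shRNA) lay above 0. The part of array-wide shifts in bright signals in these values was not tested. Leaving out the probe sets that can match several transcripts kept 8 enzymes. Their medians were 0.20 for ORF and 0.07 for shRNA, on the other side of 0. These medians cover a smaller set, since LDHA, LDHB, ALDOA, ENO1, GPI, PGAM1, PFKM and PFKL, mostly below 0, then had no ratio. Of the enzymes kept, TPI1 and PGK1 were read on other probe sets and the rest on the same ones.

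**Figure D4:**
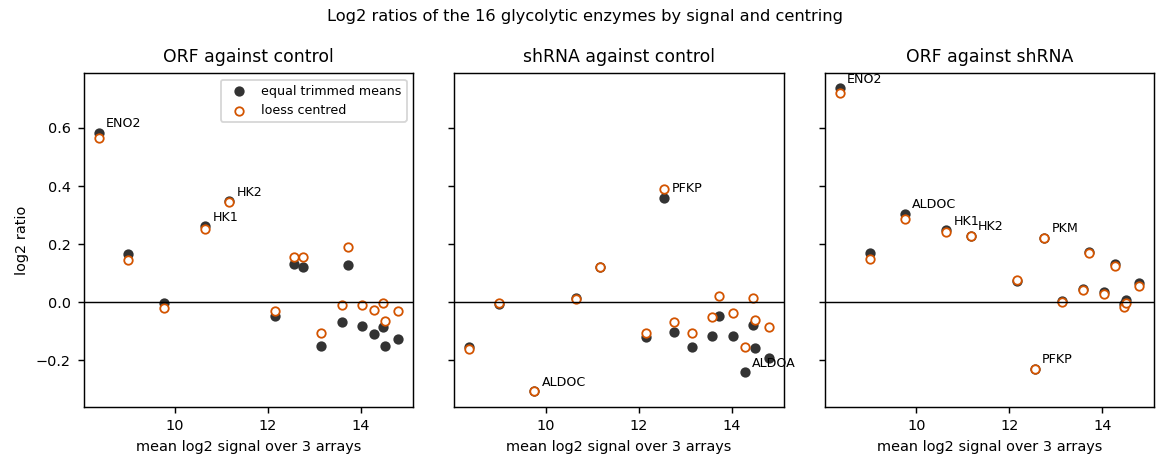
Log2 ratio (y axis) of the 16 glycolytic enzymes against mean log2 signal over the 3 arrays (x axis) for each comparison, with arrays at equal trimmed means (filled) and after loess centring (open). Loess moves the bright enzymes of both comparisons against control upward and moves those of ORF against shRNA very little, where 14 of 16 enzymes lie above 0.

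The ratios of the enzymes lay mostly on 1 side of 0 in ORF against shRNA. Here 14 of 16 were above 0, with a median of 0.10, while 47.84% of all genes tested were below 0 and their median was 0.01. The median was 0.10 with loess centring and with quantile normalization, with 3 of 16 below 0 under each. With equal medians it was 0.09, with 12 of 16 above 0, and with the median over probe sets 0.06, with 14 of 16. Without the probe sets that can match several transcripts, 5 of 8 enzymes were above 0, with a median of 0.23. The values were small, however, and ENO2 was the only enzyme past 1.5-fold (0.74). ALDOC followed at 0.30 (noise SD 0.203), HK1 at 0.25 (noise SD 0.148), HK2 at 0.23 (noise SD 0.144), PKM at 0.22 (noise SD 0.105) and TPI1 at 0.17 (noise SD 0.084). The other TPI1 probe sets, 1 of them as bright, gave 0.02 and −0.33. The other HK2 probe sets gave 0.37 and −0.27, and that of PKM gave 0.35. GPI, PFKL, PFKM, PGAM1, ENO1, LDHA and LDHB were above 0 by less than their noise SD. PFKP was the clearest exception at −0.23 (noise SD 0.111). Among the HIF targets, PFKFB4 (0.42, noise SD 0.205) and CA12 (0.35) led the same comparison, followed by STC2 at 0.30 (noise SD 0.232), VEGFA at 0.27 (noise SD 0.144) and HILPDA at 0.23 (noise SD 0.152). The second probe sets of PFKFB4 (−0.36) and STC2 (−0.25) had the opposite sign, and the median over probe sets took PFKFB4 to 0.03. ANGPTL4 was the lowest at −0.34 (noise SD 0.388).

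Genes of the same pathways outside the 43 were read from lists. Of 12 further oxygen-sensing genes 9 were above the floor and none was past 1.5-fold in any comparison. The nearest was VHL, the ubiquitin ligase subunit that binds hydroxylated HIF, at −0.57 in shRNA against control (noise SD 0.293). Of 30 further hypoxia targets 29 had a ratio in ORF against control, and 1 was higher and 1 lower past 1.5-fold, against 3.11% and 2.89% of all genes. In shRNA against control 2 of 27 were higher and 1 lower, against 3.66% and 3.36%, and in ORF against shRNA 2 of 29 were higher and 1 lower, against 2.69% and 2.74%. The medians of this list were −0.04, −0.04 and 0.07. RAB20, a small GTPase, had log2 signals of 7.91 for ORF and 8.07 for shRNA, against 6.89 for control. Both vector arrays were higher, by 1.02 (noise SD 0.311) and 1.18 (noise SD 0.345), the largest differences from control on this list. FLT1, a receptor of VEGFA, gave −0.59 in ORF against control (noise SD 0.310). AK4, a mitochondrial adenylate kinase, gave −0.64 in shRNA against control (noise SD 0.225).

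IGFBP3, which binds insulin-like growth factors, had log2 signals of 11.35 for ORF and 12.03 for shRNA, against 11.43 for control. The shRNA array stood above the others, by 0.60 over control (noise SD 0.164), and ORF against shRNA gave −0.68. BHLHE40, a transcriptional repressor, stood the other way round, with log2 signals of 11.38 for ORF and 10.48 for shRNA, against 10.92 for control. It was highest on the ORF array and lowest on the shRNA array, with a ratio of 0.90 between them (noise SD 0.141). CXCR4, a chemokine receptor tied to cell migration, had 11.46 for ORF and 10.82 for shRNA, against 11.04 for control, and a ratio of 0.64 for ORF against shRNA (noise SD 0.143). Control again lay between the vector arrays. Hypoxia targets with the largest differences between ORF and shRNA thus ran in both directions.

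Of 23 further genes of glycolysis and pyruvate handling, 16 had a ratio in ORF against control and 18 in each of the other comparisons, and none of these was past 1.5-fold. None of the 6 pentose phosphate pathway genes was past it either, beside the same shares of all genes, 2.69% to 3.66% in each direction. Of 8 gluconeogenesis genes, which run the pathway backwards in liver, 4 were above the floor. PC, the pyruvate carboxylase that starts it, had log2 signals of 8.77 for ORF and 8.52 for shRNA, against 9.56 for control. Both vector arrays were lower, with ratios of −0.79 for ORF (noise SD 0.205) and −1.04 for shRNA (noise SD 0.254). PCK2, the mitochondrial phosphoenolpyruvate carboxykinase, had 8.75 for ORF and 8.13 for shRNA, against 9.06 for control. The shRNA array was lowest, at −0.94 against control (noise SD 0.264), and the ORF array lay between, at −0.31 (noise SD 0.233). The cytosolic form PCK1 was below the floor on all 3 arrays.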

How the data were processed

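Biotin-labelled RNA was hybridised to 3 arrays, grouped by transfection label. The authors deposited a log2 signal for each of 54675 probe sets, made with MAS5 per the submitters' processing notes, with version, scaling and detection calls not stated there. Arrays were scaled to equal 2% trimmed means of the linear signal (500.07 each as deposited) and floored. Of the probe sets, 41097 had 1 symbol (41043 matched RefSeq's GRCh38.p14 gene table), 1801 several and 11777 none. Genes at or below the floor on both arrays have no ratio, which left 12374 genes with one for ORF over control, 12444 for shRNA over control and 12394 for ORF over shRNA. Noise SDs came from 4437, 4431 and 4452 pairs of probe sets less than 1 apart in mean log2 signal, in 20 bins.

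Values on all 3 arrays are given for HIF1A, EPAS1, ARNT, genes past 1.5-fold, and the 4 highest and 4 lowest against control. Members and lists were chosen with earlier results of these data known. Alternatives were quantile normalization, loess (span 40%), equal medians, 2 other floors, the median over probe sets, leaving out _x_at and _s_at probe sets, and thresholds of 0.32 and 1 (log2). Scripts (Python 3.11.15, numpy 2.4.6, pandas 2.3.3, statsmodels 0.14.6) were tested on simulated data.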

Additional observations from a re-analysis of the deposited data

How the results depend on the processing

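No paired analysis was possible because there was 1 array per group, and no array could be left out. The medians of HIF targets stayed within −0.01 to 0.06, 0.01 to 0.04 and −0.03 to 0.05 for ORF over control, shRNA over control and ORF over shRNA under 7 alternatives of scaling, floor and probe set. Those of glycolytic enzymes moved beyond the noise SD only without _x_at and _s_at probe sets, which left 8 of 16 enzymes, to 0.1964, 0.0665 and 0.2259. The count of genes past 1.5-fold in ORF against control was 1 with the floor at the 75th percentile, with the median over probe sets and without _x_at and _s_at probe sets, and 3 with no floor. In shRNA against control it was 0 under those 3 alternatives and 2 with no floor. In ORF against shRNA it was 0 with the higher floor. At a threshold of 0.32 on the log2 scale the counts were 10, 10 and 4, and at 2-fold 0, 0 and 0. Of 329 ratios of the 17 genes that the naming rule chose, recomputed under these alternatives, 313 moved by less than the noise SD, 16 moved by more, and 0 of those past 1.5-fold changed sign. GPI in ORF against shRNA, at 0.00, turned to −0.01 with equal medians, and under the median over probe sets a few ratios came to 0. The median over probe sets, which mixes bright probe sets with ones near the floor, took EPAS1 to 0.00 for ORF and 0.05 for shRNA, P4HA2 to 0.00 for ORF and PFKFB4 to −0.10 for shRNA, all against control. With 1 array per group and noise SDs of up to 0.406 near the floor, differences of EGLN3, ANGPTL4 and SLC2A3 are the least precise.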
